A study of Homo sapiens with 6 samples.

Results

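The histone cluster genes are the genes that encode the bulk histones of chromatin, here taken as every amplicon whose gene symbol begins with HIST1, HIST2, HIST3 or HIST4. The rule uses the name and no measured value, and 66 of the 20812 amplicons on the panel met it. By the class in the symbol, 6 are genes of the linker histone H1 and 15, 20, 12 and 13 are genes of the core histones H2A, H2B, H3 and H4. In GENCODE 29, 2 of the H2B genes, HIST2H2BA and HIST2H2BC, are annotated as transcribed pseudogenes and the other 64 as protein-coding. By locus, 55 belong to HIST1, 7 to HIST2, 3 to HIST3 and 1 to HIST4.

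A core of H2A, H2B, H3 and H4 carries each turn of DNA in a nucleosome, and H1 binds the DNA between nucleosomes. Most of these genes are replication-dependent: their mRNA rises in S phase, when new DNA has to be packaged, and is degraded when replication ends. The mRNA has no introns and usually no poly(A) tail, and ends instead in a short stem-loop that is bound by the stem-loop binding protein SLBP and cut by a processing complex that includes the U7 snRNP.

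Transcripts were measured in MCF10A, an established benign human mammary epithelial cell line, by amplicon sequencing with 1 short amplicon per gene. The wt libraries came from the parental line. The eGFP libraries came from cells stably transfected with the vector pIRES2eGFP, selected with G418 and sorted on eGFP fluorescence. The GIRK1 libraries came from cells treated in the same way with the coding sequence of KCNJ3, which encodes the potassium channel subunit GIRK1, in that vector, so vector, selection and sort are shared by eGFP and GIRK1 and are lacking in wt. Each group has 2 libraries, and nothing in the labels says whether these were separate cultures, so the tests below measure only the spread between these libraries, which may be technical. The libraries held 2506120 and 16040556 reads (wt replicates 1 and 2), 5126930 and 10233974 reads (eGFP) and 11107309 and 10346572 reads (GIRK1). Levels are given in RPM, the reads of a gene scaled to the same total in every library, and the smallest level that 3 reads allow ran from 0.187 to 1.20 RPM. The deposited data of the 2 GIRK1 libraries carry a tag in their names that the other 4 libraries do not, and if it marks a separate run, the effect of the run and that of the condition cannot be told apart.

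The stem-loops are shown because they are what sets these transcripts apart from other mRNAs. The histone stem-loop, 16 bases on the sense strand with all letters fixed but the inner NN of each arm, after GG or AG, and the last base of the loop, was searched in the annotated transcripts of GENCODE 29, in which all 66 genes were matched by symbol. It was found in 26 of the 66, and in 0.14% of all 57133 annotated genes. The 5 forms are given here, 5′ to 3′, with the loop in capitals.
13 members, among them HIST1H2AI, HIST2H2BE and HIST3H2BB: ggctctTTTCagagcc
5 members, all of class H4, among them HIST1H4B, HIST1H4E and HIST1H4H: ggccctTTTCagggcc
5 members, among them HIST1H2BC, HIST1H2BD and HIST1H3G: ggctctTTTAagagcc
2 members, HIST1H2AG and HIST2H2BC: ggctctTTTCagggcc
1 member, HIST1H4I: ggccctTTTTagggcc
The form of the 5 H4 members differs from the form of 13 members on both arms of the stem, and in each of these forms the arms pair. The form of HIST1H2AG and HIST2H2BC joins the first arm of the latter to the second arm of the H4 form. Of the 40 members without a match, 32 have gene models that begin at the start codon and end at the stop codon, so the stretch where a stem-loop would lie is outside the searched sequence.

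The labels were checked first. KCNJ3 had 2408 and 3677 reads in the GIRK1 libraries and 0 reads in wt replicate 2 and in both eGFP libraries. In the library labelled wt replicate 1 it had 48 reads. That library goes against its label in other genes too: of the keratins of basal mammary epithelium that mark MCF10A, KRT5 had 2 reads and KRT14 and KRT17 had 0, whereas KRT5 was between 3862 and 10660 RPM in the other 5 libraries. TP63, another basal marker, was at 0 reads in all 6 libraries. The summed level of 8 basal markers was 389 RPM in the library labelled wt replicate 1 and between 8549 and 16676 RPM elsewhere. The summed level of 10 luminal markers was 16559 RPM there, led by TFF1, and between 396 and 497 RPM elsewhere, and ESR1, which defines luminal estrogen-responsive cells, had 481 reads there and 0 elsewhere. The library labelled wt replicate 1 is therefore shown apart, with values and no test, and the comparisons rest on the other 5.

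Histone cluster reads took a smaller share of the GIRK1 libraries than of every control library. The summed share was 0.303% and 0.284% of all reads in the GIRK1 libraries, 0.946% and 0.561% in the eGFP libraries, and 0.423% in wt replicate 2. Their exact (Clopper-Pearson) 95% confidence intervals did not overlap, with bounds of 0.300% to 0.306% and 0.281% to 0.288% for GIRK1 and 0.419% to 0.426% for wt replicate 2, and these cover counting error only. The mean was 0.294% ± 0.0130 (SD, n = 2) for GIRK1 and 0.753% ± 0.272 (SD, n = 2) for eGFP, which is 2.57 times higher. The 2 eGFP libraries differed from each other by 1.69 times, eGFP replicate 2 alone was 1.91 times above the GIRK1 mean, and wt replicate 2 was 1.44 times above it. Without HIST1H4C, the member with the most reads, wt replicate 2 was 1.23 times above it. The library labelled wt replicate 1 had by far the highest share, 1.98%.

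**Figure D1:**
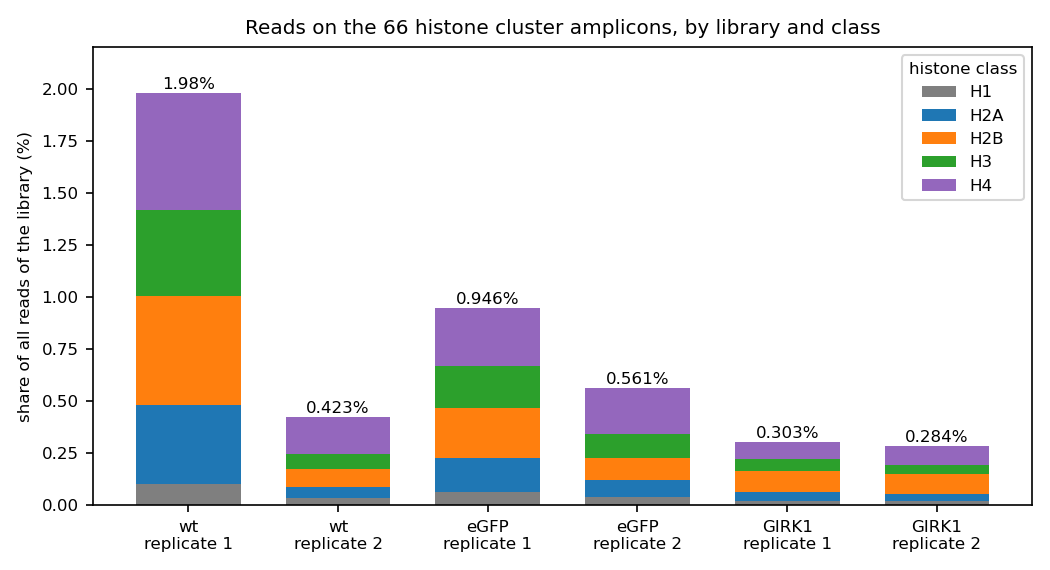
Share of all reads of each library (%, vertical axis) that fell on the 66 histone cluster amplicons, in stacked bars by class, for the 6 libraries. The GIRK1 bars (0.303% and 0.284%) are the lowest, the eGFP bars differ from each other (0.946% and 0.561%), and the library labelled wt replicate 1 stands at 1.98%.

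The makeup of that share also differed between groups. H2B reads were 32.8% and 33.2% of the histone reads in the GIRK1 libraries and 25.7%, 18.8% and 20.8% in eGFP replicates 1 and 2 and wt replicate 2. H4 reads were 27.1% and 32.4% in GIRK1 and 29.3%, 39.0% and 42.1% in the same controls, so that eGFP replicate 1 lay within the GIRK1 values for H4 and no control did for H2B. The HIST1 locus on chromosome 6 held 80.5% and 77.4% of the histone reads in GIRK1 and 85.3%, 88.8% and 88.5% in the controls. The HIST2 and HIST3 loci on chromosome 1 held more of them in GIRK1 than in any of the 3 controls. For HIST3 the level itself was also higher, at 110 and 107 RPM against 74.1, 87.8 and 67.2 RPM. Most of it was HIST3H2BB, at 96.4 and 89.7 RPM in GIRK1, while HIST3H2A, at 13.5 and 16.0 RPM, lay within its controls (16.2, 15.9 and 9.85 RPM). The summed H2B level in GIRK1 (994 and 945 RPM) was below both eGFP libraries but above wt replicate 2 (878 RPM). So was that of HIST2 (479 and 537 RPM, wt replicate 2 418 RPM). These shares and levels were not tested, since a score over chosen genes has no test here.

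Levels among the members spanned more than 3 orders of magnitude. Over the 5 libraries without the one labelled wt replicate 1, 14 members had a mean above 100 RPM, 27 between 10 and 100, 8 between 1 and 10, and 17 at or below 1 RPM. HIST1H4C was the most abundant, with 25.0% of the histone reads in wt replicate 2, 13.3% and 22.1% in eGFP, and 10.9% and 13.99% in GIRK1. HIST2H2BE, the next, held 13.0% and 15.9% in GIRK1 and 7.41%, 11.9% and 7.25% in wt replicate 2 and eGFP. HIST2H2BE was thus the leading member in both GIRK1 libraries, and HIST1H4C in all 3 controls.

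Copies limit how far a read can be assigned to 1 gene. The panel's own annotation attaches more than 1 gene identifier to 35 of the 66 amplicons, and up to 14 to those of class H4. In the GENCODE transcripts, 15 members shared with another histone gene an exact run at least as long as their amplicon, and the median longest shared run was 49 bases against amplicons of 86 to 110 bases. HIST1H2AI and HIST1H2AJ share 332 bases, HIST3H2BB and HIST3H2BA 179, HIST2H2BE and HIST2H2BF 140, and the gene models of HIST1H2AM and HIST1H3J overlap. Where on these runs an amplicon lies was not analysed here, so the counts of these genes are less certain than the rest. HIST1H4G, HIST1H4J, HIST1H4K, HIST2H2AC and HIST2H2BA had 0 reads in all 6 libraries, and 4 of these 5 are among the 15.

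GIRK1 libraries were compared with eGFP libraries first, the contrast of the study. By edgeR's quasi-likelihood test, adjusted over all 11279 genes tested (Benjamini-Hochberg), 5 of the 49 members that passed the filter on low counts were lower in GIRK1 at an adjusted p below 0.05 and 0 were higher, where 0.745% of all genes tested were lower and 0.78% higher. By DESeq2, 25 members were lower and 0 higher, where 4.02% of all genes tested were lower and 2.14% higher. The 5 were HIST1H1E, HIST1H2AI, HIST1H2AL, HIST1H3G and HIST1H4C. All 5 also passed without either eGFP library, while without GIRK1 replicate 1 the 1 member to pass was HIST1H2AI and without GIRK1 replicate 2 it was HIST1H3G. With no adjustment 30 members had a p below 0.05 and were lower and 2 were higher, where 10.8% and 8.42% of all genes did so. The log2 fold change was negative for 43 of the 49 members (48.9% of all genes tested), with a median of -1.26 (0.01 over all genes tested). Both GIRK1 libraries were below both eGFP libraries for 31 members (25.2% of all genes tested) and above both for 5 members (29.1%). The other 17 members had too few reads to be tested. In bulk RNA, fewer cells in S phase and less histone mRNA in each cell cannot be told apart. Flow cytometry in the study found no statistically significant difference in cell cycle stages among the parental, eGFP and GIRK1 MCF10A lines. How that measurement relates to these histone levels was not tested.

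**Figure D2:**
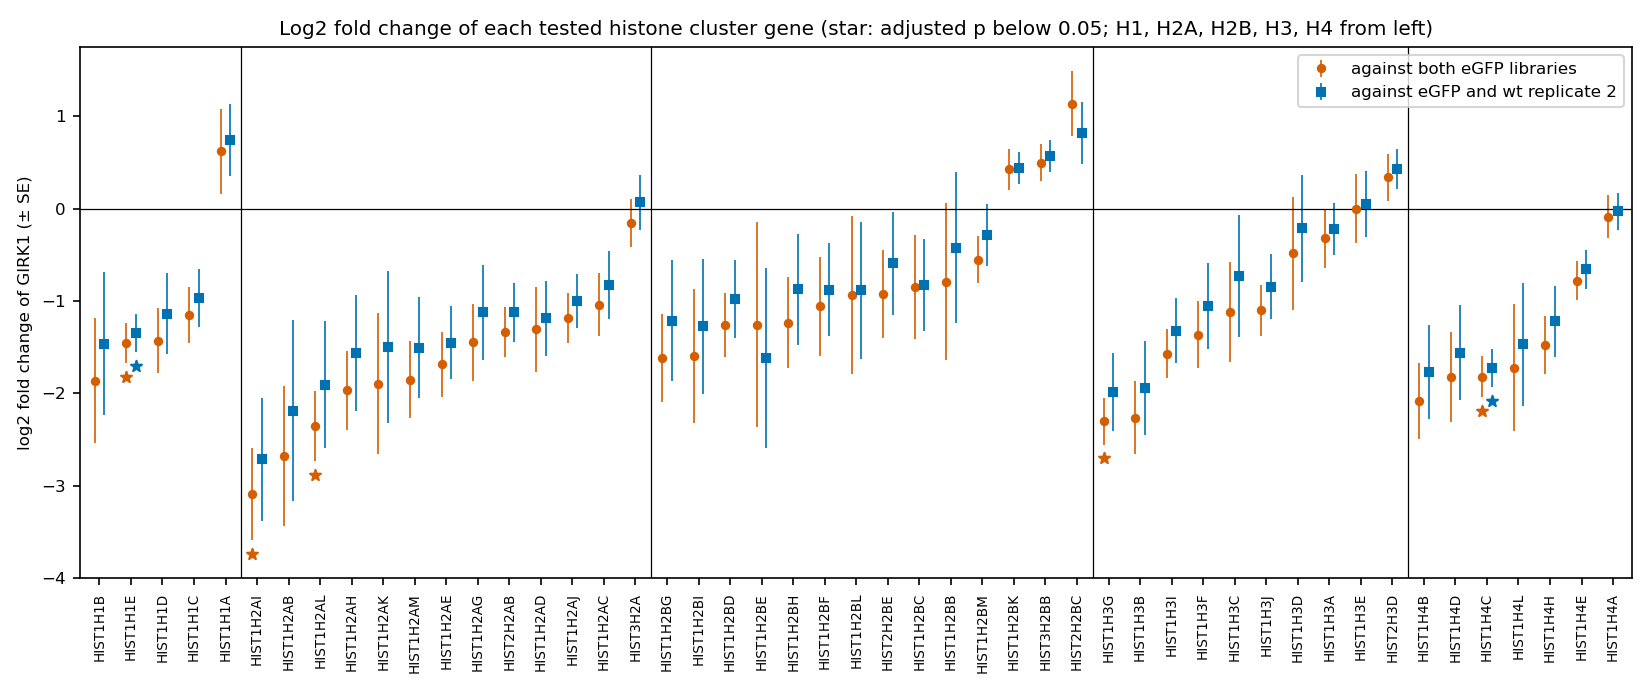
Log2 fold change of GIRK1 (vertical axis, bars ± SE) for each of the 49 tested members, by class from H1 at the left to H4 at the right, against the 2 eGFP libraries (circles) and against these and wt replicate 2 (squares). Stars mark an adjusted p below 0.05, and most points lie below 0, with HIST1H2AI lowest at -3.09 and the pseudogene HIST2H2BC highest at 1.14.

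Among the linker histones, 4 of 5 tested members had a negative fold change and 1, HIST1H1E, passed the test. HIST1H1E (chromosome 6, 26156354 to 26157107, GRCh38, plus strand) encodes one of the common somatic H1 subtypes. Its level was 98.0 and 96.4 RPM in GIRK1, 276 and 240 RPM in eGFP and 210 RPM in wt replicate 2. The GIRK1 values lay close together and far under all 3 controls, and the log2 fold change was -1.45 ± 0.22 (SE; edgeR, adjusted p = 0.0369). HIST1H1C was at 42.4 and 35.9 RPM in GIRK1, 103 and 64.9 RPM in eGFP and 56.9 RPM in wt replicate 2. HIST1H1D was at 40.3 and 41.7 RPM in GIRK1, 140 and 73.3 RPM in eGFP and 50.5 RPM in wt replicate 2. For both genes GIRK1 was the lowest, then wt replicate 2, then eGFP, as for HIST1H1E, but the eGFP libraries were further apart, and neither passed the test (adjusted p = 0.12 and 0.111, edgeR). HIST1H1B, another somatic H1, was at 19.4 and 10.2 RPM in GIRK1 against 83.1 and 20.1 RPM in eGFP and 16.2 RPM in wt replicate 2, so that GIRK1 replicate 1 lay above wt replicate 2. HIST1H1A went the other way, with 4.77 and 3.00 RPM in GIRK1 and 2.73 and 2.25 RPM in eGFP (log2 fold change 0.62 ± 0.46), and did not pass.

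H2A was, with H4, the class of the lowest median: all 13 tested members had a negative one, the median was -1.69, and 2 passed the test. HIST1H2AI (chromosome 6, 27808199 to 27808701, plus strand) had 27.5 and 20.8 RPM in GIRK1, 285 and 109 RPM in eGFP and 64.9 RPM in wt replicate 2. The groups did not overlap, and its log2 fold change of -3.09 ± 0.50 (edgeR, adjusted p = 0.0442) was the lowest of all members. HIST1H2AL had 6.66 and 5.61 RPM in GIRK1, 39.2 and 21.9 RPM in eGFP and 7.17 RPM in wt replicate 2, a log2 fold change of -2.36 ± 0.38 against eGFP (edgeR, adjusted p = 0.0442). Wt replicate 2 was thus much nearer to GIRK1 than to eGFP for HIST1H2AL. HIST1H2AB showed this more strongly: wt replicate 2, at 5.98 RPM, lay between the GIRK1 libraries at 6.84 and 4.16 RPM, while eGFP was at 56.8 and 11.4 RPM. Its log2 fold change against eGFP, -2.68 ± 0.76, did not pass (edgeR, adjusted p = 0.141).

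The most abundant H2A genes lay between these cases. HIST1H2AM was at 83.1 and 58.4 RPM in GIRK1, 334 and 156 RPM in eGFP and 93.6 RPM in wt replicate 2. HIST2H2AB was at 60.4 and 58.0 RPM in GIRK1, 173 and 117 RPM in eGFP and 88.2 RPM in wt replicate 2. HIST1H2AG was at 61.0 and 51.1 RPM in GIRK1, 204 and 89.0 RPM in eGFP and 63.0 RPM in wt replicate 2. In all 3 genes the GIRK1 libraries were the lowest of the 5 and eGFP replicate 1 the highest, and none passed the test (log2 fold changes of -1.85, -1.34 and -1.45).

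H2B had the median closest to 0 against eGFP: of 14 tested members 11 had a negative fold change, the median was -0.93, and 0 passed the test by edgeR. At an unadjusted p below 0.05, 3 of the 14 were lower and 2 higher (10.8% and 8.42% of all genes tested), and by DESeq2 2 were lower (4.02% of all genes). HIST2H2BE (chromosome 1, 149884459 to 149886652, minus strand) was at 395 and 453 RPM in GIRK1, 1128 and 407 RPM in eGFP and 313 RPM in wt replicate 2. The GIRK1 values lay on both sides of eGFP replicate 2 and above wt replicate 2, so its log2 fold change of -0.92 ± 0.48 rests on eGFP replicate 1 and turned to 0.07 without it. HIST1H2BC was at 100 and 52.4 RPM in GIRK1, 198 and 64.6 RPM in eGFP and 132 RPM in wt replicate 2. Its GIRK1 values also lay on both sides of eGFP replicate 2, but below wt replicate 2, and its log2 fold change turned from -0.85 to 0.25 without eGFP replicate 1. HIST1H2BD, at 193 and 175 RPM in GIRK1 against 552 and 294 RPM in eGFP and 208 RPM in wt replicate 2, stayed below all 3 (log2 fold change -1.26 ± 0.35, edgeR, adjusted p = 0.137).

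Of the 5 members with both GIRK1 libraries above both eGFP libraries, 3 were of class H2B. HIST3H2BB (chromosome 1, 228458107 to 228460470, plus strand) was at 96.4 and 89.7 RPM in GIRK1, 57.1 and 71.5 RPM in eGFP and 56.7 RPM in wt replicate 2. HIST2H2BC, the pseudogene in the HIST2 locus, was at 8.37 and 8.31 RPM in GIRK1, 3.90 and 3.52 RPM in eGFP and 6.42 RPM in wt replicate 2. HIST1H2BK, chosen after its values were seen, was at 51.4 and 47.9 RPM in GIRK1, 38.2 and 33.6 RPM in eGFP and 36.2 RPM in wt replicate 2. In each of the 3 both GIRK1 libraries were above all 3 controls, with log2 fold changes against eGFP of 0.50 ± 0.20, 1.14 ± 0.35 and 0.43 ± 0.22. None passed the test (edgeR, adjusted p = 0.246, 0.16 and 0.338), and all 3 are among the genes that share a run of at least their amplicon's length with another gene.

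For H3, 8 of 10 tested members had a negative fold change and 1 passed. HIST1H3G (chromosome 6, 26269405 to 26271815, minus strand) was at 80.1 and 82.4 RPM in GIRK1, 440 and 334 RPM in eGFP and 168 RPM in wt replicate 2. The GIRK1 libraries were far below all 3 controls, and the log2 fold change of -2.30 ± 0.25 had the lowest adjusted p of the members (0.0138, edgeR). HIST1H3B was at 130 and 83.0 RPM in GIRK1, 637 and 343 RPM in eGFP and 206 RPM in wt replicate 2. HIST1H3I was at 78.9 and 79.8 RPM in GIRK1, 269 and 186 RPM in eGFP and 125 RPM in wt replicate 2. Both had GIRK1 lowest and wt replicate 2 next, as HIST1H3G did, with log2 fold changes of -2.26 ± 0.40 and -1.57 ± 0.27, just outside the threshold (edgeR, adjusted p = 0.0529 and 0.0502). HIST1H3C differed from these: its 189 and 101 RPM in GIRK1 overlapped the 443 and 156 RPM in eGFP, and wt replicate 2 was the lowest of the 5 at 94.1 RPM.

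All 7 tested H4 members had a negative fold change, with the lowest median of the classes (-1.72), and 1 passed. HIST1H4C (chromosome 6, 26103876 to 26104310, plus strand) was at 330 and 398 RPM in GIRK1, 1258 and 1239 RPM in eGFP and 1058 RPM in wt replicate 2. The 3 controls lay close together and far above GIRK1, and the log2 fold change was -1.82 ± 0.22 (edgeR, adjusted p = 0.0198). HIST1H4H was at 202 and 207 RPM in GIRK1, 687 and 410 RPM in eGFP and 293 RPM in wt replicate 2. HIST1H4E was at 172 and 200 RPM in GIRK1, 310 and 313 RPM in eGFP and 241 RPM in wt replicate 2. HIST1H4B was at 53.6 and 58.0 RPM in GIRK1, 312 and 141.6 RPM in eGFP and 98.9 RPM in wt replicate 2. In each of these 3 genes both GIRK1 libraries were below every control, with log2 fold changes of -1.48, -0.78 and -2.08, and none passed the test (edgeR, adjusted p = 0.0856, 0.129 and 0.0721). HIST1H4A, chosen after its values were seen, hardly differed between the 5 libraries, from 21.9 to 26.3 RPM.

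**Figure D3:**
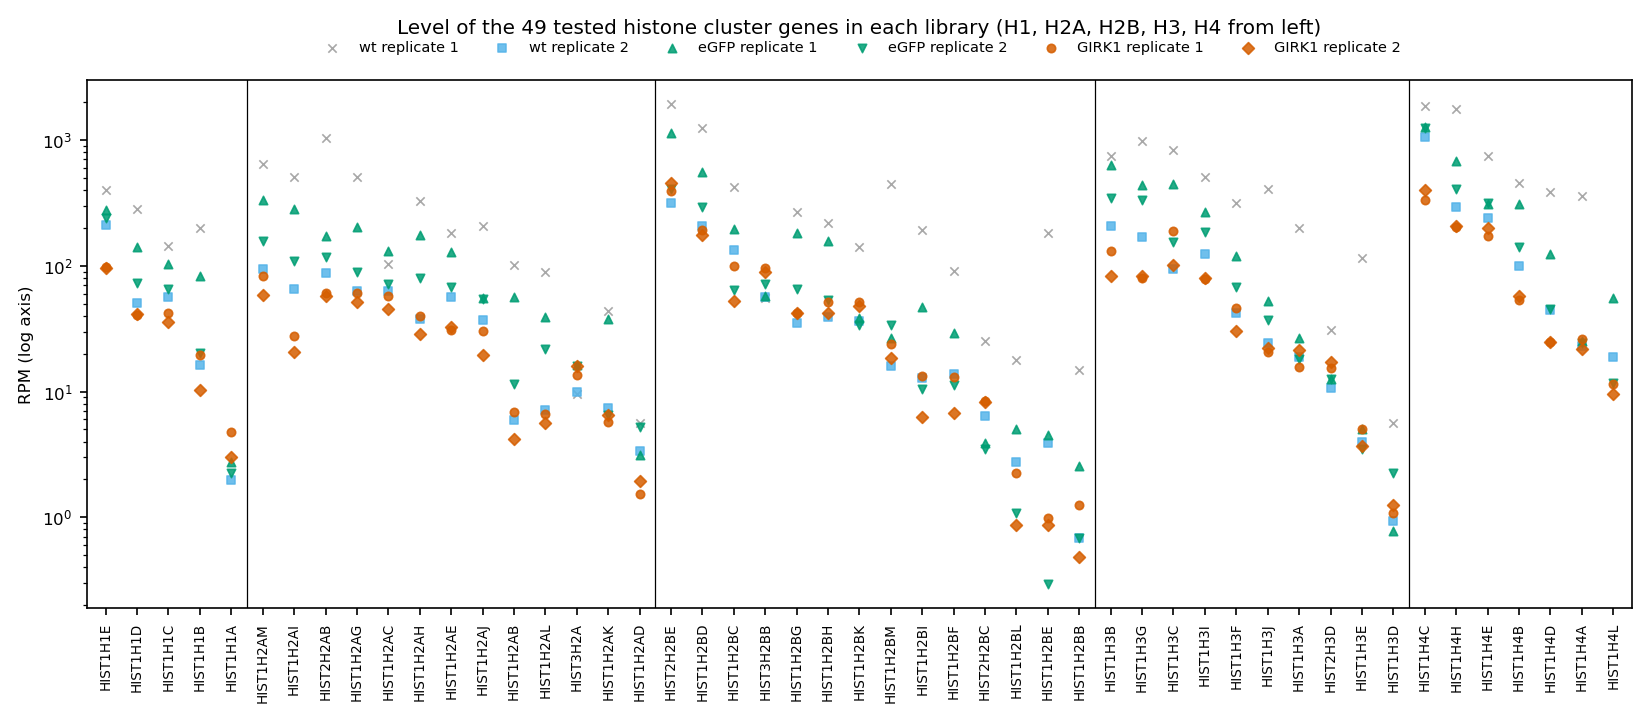
Level in RPM (vertical log axis) of each of the 49 tested members in the 6 libraries, by class from H1 at the left to H4 at the right and by mean level within a class; levels of 0 are not drawn. GIRK1 points (circles and diamonds) are both below eGFP and wt replicate 2 for 3 of 5 members of H1, 10 of 13 of H2A and 1 of 14 of H2B. They are so for 4 of 10 of H3 and 6 of 7 of H4, and the same holds for 19.6% of all genes tested. With wt replicate 1 left aside, eGFP replicate 1 (upward triangles) is the highest of the other 5 libraries for 39 members, a count not made over all genes. HIST3H2BB, HIST1H2BK and HIST2H2BC show the reverse order for GIRK1.

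When wt replicate 2 was added to the controls, fewer members passed. Against the 3 controls, 2 of 49 members were lower at an adjusted p below 0.05 by edgeR (0.413% of the 11389 genes tested) and 0 were higher (0.799%), and with no adjustment 20 were lower (10.2% of all genes) and 3 higher (8.58%). By DESeq2, 14 were lower and 0 higher (4.1% and 2.98% of all genes), and 1 member had no adjusted p. The 2 were HIST1H4C (log2 fold change -1.73 ± 0.21, edgeR, adjusted p = 0.0128) and HIST1H1E (-1.35 ± 0.21, edgeR, adjusted p = 0.0362), both also among the 5 against eGFP. Neither passed when eGFP replicate 2 or either GIRK1 library was left out, and both passed without eGFP replicate 1. The log2 fold change was negative for 42 of the 49 (50.7% of all genes tested), the median over members was -1.05 (-0.01 over all genes tested), and the class medians were -1.14 for H1, -1.45 for H2A, -0.85 for H2B, -0.79 for H3 and -1.47 for H4. Both GIRK1 libraries were below all 3 controls for 24 members (19.6% of all genes tested) and above all 3 for 5 (21.6%). These 5 were HIST1H1A, HIST1H2BK, HIST2H2BC, HIST2H3D and HIST3H2BB. The 2 fits share the eGFP and GIRK1 libraries, so they do not count as separate evidence.

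How far the members were apart depended on the control library. eGFP replicate 1 was above eGFP replicate 2 for 43 of the 49 tested members, with a median difference of 0.86 on the log2 scale against -0.12 over all genes tested. On the scale of log2(RPM + 0.5), the mean of the GIRK1 libraries differed from eGFP replicate 1 by a median of -1.58 over the members, from eGFP replicate 2 by -0.67 and from wt replicate 2 by -0.26, with 43, 37 and 34 of the 49 members negative. Over all genes tested the same medians were 0.13, -0.01 and -0.01, and 42.7%, 50.7% and 51.2% of genes were negative. In each class the median was lowest against eGFP replicate 1 and highest against wt replicate 2, but the sizes differed. For H4 the medians were -1.79, -0.85 and -0.81, and all 7, all 7 and 6 of the 7 members were negative. For H2B they were -1.42, 0.14 and 0.23, and 11, 6 and 6 of the 14 were negative, so that the H2B median was negative against eGFP replicate 1 and positive against the other 2 controls. These differences between controls and between classes were not tested.

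**Figure D4:**
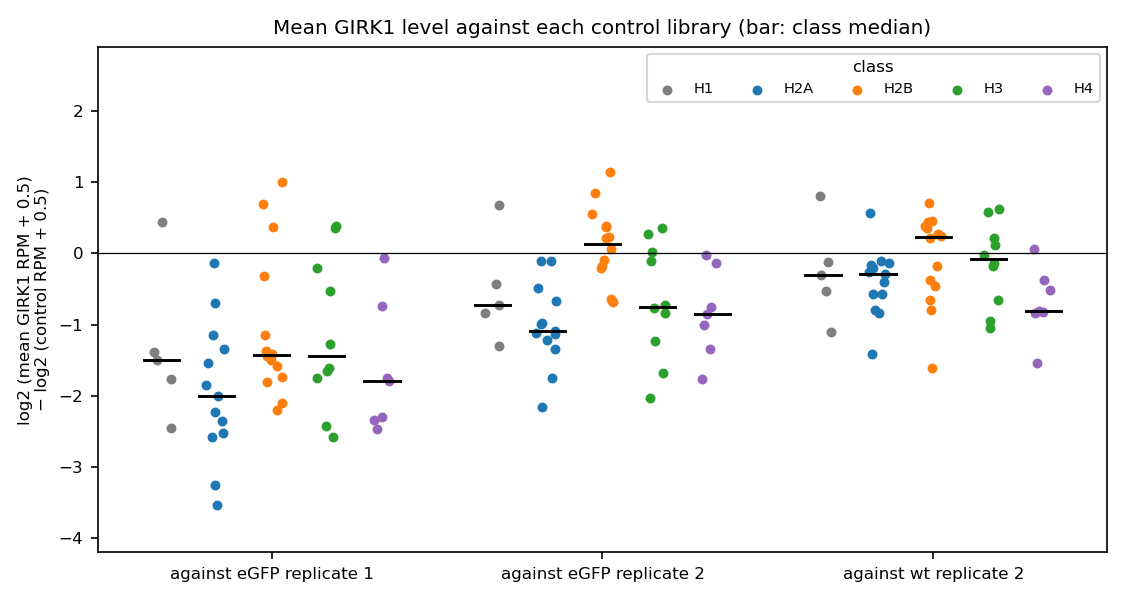
Difference between the mean GIRK1 level and the level in each single control library (vertical axis, log2 of RPM + 0.5) for the 49 tested members, in columns by class with the class median as a bar. The H4 medians are negative against each control (-1.79, -0.85 and -0.81), and the H2B medians are -1.42, 0.14 and 0.23.

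Without eGFP replicate 1, that is, with eGFP replicate 2 and wt replicate 2 as controls, the spread between libraries was smaller and 12 of 48 members were lower by edgeR, where 4.43% of the 11274 genes tested were lower. By edgeR 0 were higher (4.3% of all genes). At an unadjusted p below 0.05, 21 were lower (13.4% of all genes) and 5 higher (12.7%), and by DESeq2 15 were lower (4.69%) and 0 higher (4.34%). The median over members was -0.46, and 36 of the 48 were negative (50.2% of all genes). The 12 were HIST1H1C and HIST1H1E of H1, HIST1H2AE, HIST1H2AI and HIST2H2AB of H2A, HIST1H3B, HIST1H3G and HIST1H3I of H3, and HIST1H4B, HIST1H4C, HIST1H4D and HIST1H4H of H4. Of the 13 H2B members tested, 0 were among them, 1 was lower and 3 were higher at an unadjusted p below 0.05 (13.4% and 12.7% of all genes), and 0 passed by DESeq2. The largest change was that of HIST1H2AI, -1.83 ± 0.25 (edgeR, adjusted p = 0.00338), and the lowest adjusted p that of HIST1H4C, -1.64 ± 0.16 (edgeR, adjusted p = 0.000544).

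By the fold and variation rule of the study's methods (means at least 2-fold apart in RPM, and in both groups an SD under 0.7 times the mean), 27 of 56 members were lower in GIRK1 than in eGFP and 1 was higher, where 5.17% and 4.75% of all genes were. The 1 higher was the pseudogene HIST2H2BC. Another 9 members were 2-fold lower but exceeded the limit on variation, among them HIST1H1B and HIST1H2AB, whose eGFP libraries had an SD of 0.863 and 0.940 times the mean. HIST1H2BJ, HIST1H2BN and HIST1H2BO, also among the 9, had too few reads to be tested. With no limit on variation, 36 of 56 members and 1284 of 13200 genes were 2-fold lower.

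Histone genes often lie head to head and share the stretch between their starts. Of 12 such pairs with starts at most 1000 bases apart in GENCODE, 7 had both genes tested, and both fold changes against eGFP were negative in 5. Since 43 of the 49 tested members were negative, this count does not show that paired genes move together. HIST1H2BG and HIST1H2AE were nearly alike, at -1.62 and -1.69. HIST1H2BL and HIST1H2AI, 268 bases apart, differed most among the pairs that lay on the same side of 0, at -0.93 and -3.09. HIST1H2BK and HIST1H2AH, 331 bases apart, had opposite signs, at 0.43 and -1.97, and so did HIST3H2BB and HIST3H2A, 234 bases apart, at 0.50 and -0.16. These pairs were chosen for description and their differences were not tested.

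Upstream sequences are shown for 2 members that were lower by the test and for 2 with a positive fold change that did not pass it in either comparison, so that the letters before their starts can be read beside the values. The TATA box (TATAAA), the CCAAT box and the octamer bound by Oct-1 (ATTTGCAT) were searched on both strands in the 250 bases before the start in RefSeq (GRCh38.p14), in which 59 of the 66 members were matched. The 130 bases before the start follow, 5′ to 3′ on the gene's strand, with motif matches on either strand in capitals.
HIST1H2AI, chr6:27808043-27808172, plus strand: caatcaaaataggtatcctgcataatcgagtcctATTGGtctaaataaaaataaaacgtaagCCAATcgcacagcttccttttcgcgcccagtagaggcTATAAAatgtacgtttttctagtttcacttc
HIST1H1E, chr6:26156199-26156328, plus strand: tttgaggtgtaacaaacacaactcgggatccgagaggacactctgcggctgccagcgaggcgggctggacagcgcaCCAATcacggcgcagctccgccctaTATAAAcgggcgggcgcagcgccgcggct
HIST1H2BK, chr6:27146859-27146988, minus strand: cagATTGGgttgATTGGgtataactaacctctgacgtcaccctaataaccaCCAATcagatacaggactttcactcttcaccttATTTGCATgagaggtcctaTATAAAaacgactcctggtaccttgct
HIST3H2BB, chr1:228457973-228458102, plus strand: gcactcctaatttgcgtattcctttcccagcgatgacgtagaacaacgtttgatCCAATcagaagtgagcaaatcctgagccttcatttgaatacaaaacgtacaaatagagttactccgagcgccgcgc
TATAAA was in 66.1% of the 59 members' windows and in 10.7% of all 35116 RefSeq promoters, and it is in 3 of the 4 stretches shown and not in that of HIST3H2BB. CCAAT was in 86.4% of the members' windows and 32.01% of all, but by class it was in every H1, H2A, H2B and H3 window and in 3 of 11 of H4. The octamer was in 11 of 14 H2A and 14 of 18 H2B windows, in 1 of 10 of H3 and in 0 of H1 and H4, and in 1.63% of all promoters. A match is a match of letters only.

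Several members have annotated transcripts that run on past the stem-loop. Of the 26 with a stem-loop, 19 had over 100 bases after it, and 14 of these were tested, with a median log2 fold change against eGFP of -1.05 and a range of -2.30 to 1.14. The 5 tested members whose models with a stem-loop ended within 100 bases of it had a median of -1.69 and a range of -3.09 to -0.93. Distances were read only in transcripts that hold the stem-loop, and HIST1H2BD, among these 5, has 2 annotated transcripts. HIST3H2BB and HIST2H2BC, whose positive fold changes did not pass the test, have 1917 and 5804 annotated bases after the stem-loop, and HIST1H3G, which was lower, has 1518. The ranges overlapped, the difference was not tested, and which form was sequenced was not analysed here.

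Histone variants are encoded by genes outside the clusters and take the place of the bulk histones in part of the nucleosomes. Of 12 listed, 10 were tested and 0 passed by edgeR in either comparison, with 2 lower and 1 higher against eGFP at an unadjusted p below 0.05 (10.8% and 8.42% of all genes) and a median log2 fold change of -0.35. By DESeq2, 1 was lower in each comparison (4.02% and 4.1% of all genes). H3F3B, which encodes the variant H3.3, was at 1579 and 1822 RPM in GIRK1, 1098 and 1232 RPM in eGFP and 1262 RPM in wt replicate 2. Both GIRK1 libraries were above all 3 controls, at a log2 fold change of 0.51 ± 0.21 that did not pass. H1F0, the linker histone of non-dividing cells, was at 278 and 348 RPM in GIRK1, 25.9 and 234 RPM in eGFP and 238 RPM in wt replicate 2. Both GIRK1 libraries were above all 3 controls here too, eGFP replicate 1 was far below the other 4 libraries, and the log2 fold change of 1.27 ± 0.80 did not pass (edgeR, adjusted p = 0.419). CENPA, the H3 variant of centromeres, was at 22.6 and 19.5 RPM in GIRK1, 37.3 and 43.5 RPM in eGFP and 42.1 RPM in wt replicate 2 (log2 fold change -0.98 ± 0.22, edgeR, adjusted p = 0.0948). H2AFZ and H2AFX, which encode the variants H2A.Z and H2A.X, had log2 fold changes of -0.44 ± 0.27 and -0.52 ± 0.24, and neither passed.

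The genes that make and process histone mRNA had a median near 0. Of 17 listed, 16 were tested, 0 passed by edgeR in either comparison and 0 had an unadjusted p below 0.05, with a median of 0.02 against eGFP and 0 calls by DESeq2. SLBP was at 95.3 and 79.6 RPM in GIRK1, 80.8 and 74.7 RPM in eGFP and 70.8 RPM in wt replicate 2. NPAT, the coactivator of histone gene transcription that cyclin E and CDK2 phosphorylate, was at 12.8 and 11.7 RPM in GIRK1, 15.6 and 13.0 RPM in eGFP and 9.97 RPM in wt replicate 2. The values of both genes in GIRK1 overlapped or bordered those of the controls. The largest differences of the list were those of CDK2 (log2 fold change -0.71 ± 0.34) and POU2F1 (0.91 ± 0.42), and neither passed. POU2F1 encodes the octamer-binding factor Oct-1. For CDK2 the log2 fold change was -0.16 without eGFP replicate 1 and -1.13 without eGFP replicate 2.

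Among the 16 histone chaperones, 1 passed by edgeR in both comparisons and was lower, where 0.745% and 0.413% of all genes tested were. The median was -0.15 against eGFP. At an unadjusted p below 0.05 (edgeR), 2 were lower and 1 higher against eGFP (10.8% and 8.42% of all genes). By DESeq2, 1 was lower in each comparison (4.02% and 4.1% of all genes), and 1, HIRA, was higher against the 3 controls (2.98%). The lower one was HJURP, the chaperone that loads CENPA at centromeres, at 35.5 and 31.6 RPM in GIRK1, 87.8 and 81.6 RPM in eGFP and 65.8 RPM in wt replicate 2. The log2 fold change was -1.38 ± 0.21 against eGFP and -1.25 ± 0.21 against the 3 controls (edgeR, adjusted p = 0.0377 and 0.0489), and HJURP did not pass in either comparison without GIRK1 replicate 1 (edgeR, adjusted p = 0.194 and 0.332) or replicate 2 (0.294 and 0.499), nor against the controls without eGFP replicate 2 (0.208). HIRA, which deposits H3.3 outside replication, was at 31.8 and 27.3 RPM in GIRK1, 16.8 and 17.7 RPM in eGFP and 19.2 RPM in wt replicate 2. Its log2 fold changes of 0.74 ± 0.23 against eGFP and 0.70 ± 0.19 against the 3 controls did not pass by edgeR (adjusted p = 0.169 and 0.127). Both GIRK1 libraries were above all 3 controls.

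Genes of DNA replication, which are also used in S phase, were set beside the histone genes. Of 20 listed, 19 were tested and 0 passed by edgeR in either comparison, with 5 lower and 0 higher against eGFP at an unadjusted p below 0.05 (10.8% and 8.42% of all genes) and a median of -0.69. By DESeq2, 3 were lower against eGFP (4.02% of all genes) and 2 against the 3 controls (4.1%). Their summed level was 919 and 698 RPM in GIRK1, 1532 and 834 RPM in eGFP and 734 RPM in wt replicate 2. MCM2 was at 0 reads in all 5 of these libraries, and RRM2 was the most abundant. The order of the libraries in this sum was that of the histone share for eGFP replicate 1, the highest, but GIRK1 replicate 1 lay above both eGFP replicate 2 and wt replicate 2. MKI67, a proliferation marker read outside these lists, was at 18.2 and 24.6 RPM in GIRK1, 55.2 and 46.2 RPM in eGFP and 42.1 RPM in wt replicate 2. The part of the share of dividing cells in the histone levels was not tested.

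**Figure D5:**
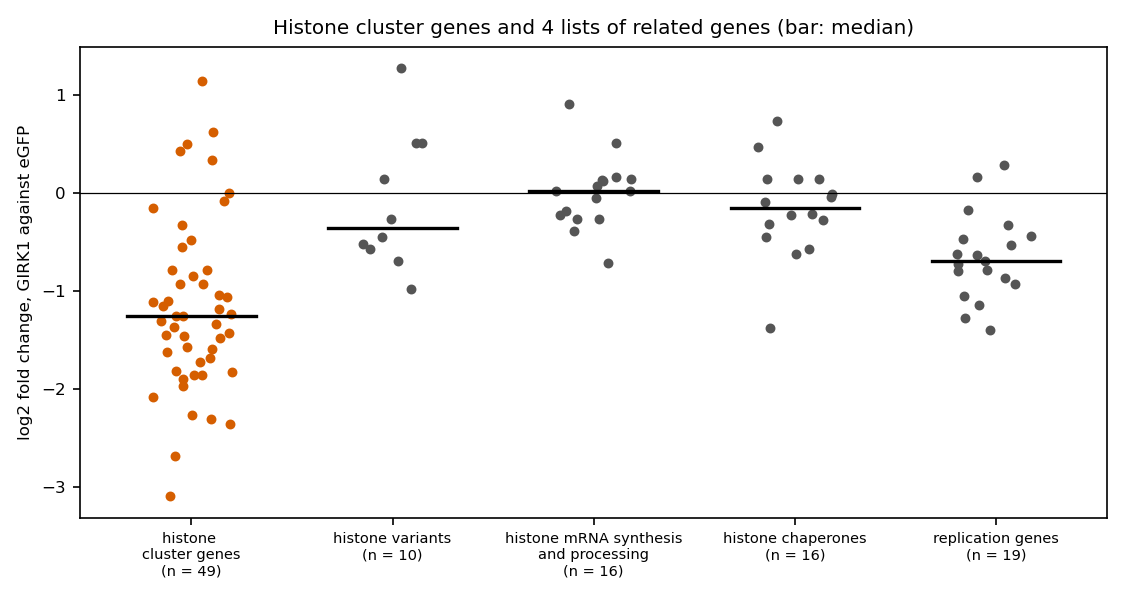
Log2 fold change of GIRK1 against eGFP (vertical axis) for the tested histone cluster genes and for 4 lists of related genes, 1 point per gene with the median as a bar. The medians are -1.26 for the histone cluster genes, -0.35 for histone variants, 0.02 for histone mRNA synthesis and processing, -0.15 for chaperones and -0.69 for replication genes.

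The library labelled wt replicate 1 had the highest level of all 6 for 44 of the 49 tested members. How often it was the highest over all genes was not counted. On the scale of log2(RPM + 0.5), the GIRK1 mean was below that library for 45 of the 49 members and for 48.9% of all genes tested. HIST2H2BE was at 1921 RPM there, HIST1H4C at 1879 RPM and HIST1H2BD at 1243 RPM. HIST1H2BE, chosen after its values were seen, was at 181 RPM there and between 0.293 and 4.49 RPM in the other 5. For 4 tested members it was the lowest of the 6. HIST1H4L was at 0 reads there and between 9.47 and 55.2 RPM elsewhere, and HIST1H1A at 0 reads there and between 1.99 and 4.77 RPM elsewhere. HIST3H2A and HIST3H2BB were the lowest by a small margin, at 9.58 RPM against 9.85 to 16.2 RPM and at 55.9 RPM against 56.7 to 96.4 RPM.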

How the data were processed

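Each library gave 1 table of 20812 amplicons. The authors mapped the reads to the Ion AmpliSeq transcriptome reference with the Ion Torrent software and deposited whole read counts per amplicon and RPM values, which are the count divided by the library total. Forward and reverse end-to-end reads, also deposited as counts, served in 1 alternative. How reads from near-identical copies were assigned is not given in the sources used here. Rows were joined by amplicon.

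The test was that of edgeR 4.0.16 (in R 4.3.3; TMM, filterByExpr, glmQLFit and glmQLFTest, Benjamini-Hochberg, threshold 0.05) over all genes, in 4 libraries (GIRK1 and eGFP) and in 5 (GIRK1 against eGFP and wt replicate 2 as 1 group). The SE was derived from the F value. DESeq2 1.42.0 was an alternative, beside other scalings, filters, a replicate block, end-to-end reads, all 6 libraries and leaving out each library. With 200 of the genes averaging 10 or more reads changed 8-fold in simulated counts, 96.5% were recovered and 16 unchanged genes called in the 4-library design, and 95.5% and 13 in the 5-library design. Smaller changes, such as those of most members, were not simulated, so how often the test misses them is not known. The members were taken by symbol, but this symbol rule, the gene lists and the tests were chosen with earlier results of these data known. Named members were the 4 most abundant of each class, those with an adjusted p below 0.05 and the 3 largest changes each way among those averaging 10 or more reads. The other named genes were SLBP, NPAT, H2AFX, H2AFZ, H3F3B and H1F0, and of the variant, processing and chaperone lists those with an adjusted p below 0.05 and the largest change each way. Fibroblast and leukocyte markers summed to at most 33.2 and 22.0 RPM in any library.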

Additional observations from a re-analysis of the deposited data

Results flagged for a closer look

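The library labelled wt replicate 1, which was in no comparison, held 110 reads of HIST1H4F (43.9 RPM), while the other 5 libraries held 0. In that library the summed share of histone cluster reads was 1.98% of all reads, above the share in every control library. The basal and luminal markers given with the label check move with both values, and their part in them was not tested. Groups of 2 libraries are too small to look for an outlying sample within a group.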

How the results depend on the processing

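Against eGFP, the 172 genes and 5 members with an adjusted p below 0.05 became 881 and 27 with no filter on low counts, 694 and 25 with DESeq2, 590 and 21 with a replicate block, and 0 and 0 in a fit of all 6 libraries, where 7 of 51 members and 606 of 11546 genes had an unadjusted p below 0.05. At least 10 reads in every library left 111 genes. Leaving out 1 library gave 89 to 2933 genes, 1 to 36 members and a median over members of -1.72 to -0.67. Without eGFP replicate 1 there were 718 genes and 17 members, without eGFP replicate 2 there were 2933 and 36, and without either GIRK1 library 1 member was left. Against the 3 controls, the 2 members called became 5 (374 genes) with no filter, 14 (806 genes) with DESeq2, 11 (558) with the block, and 0 (7) with all 6 libraries, where 15 of 51 members were lower and 1 higher at an unadjusted p below 0.05 (376 and 397 of 11546 genes) and the median was -1.78. Leaving out 1 library gave 19 to 984 genes, 0 to 12 members and a median of -1.26 to -0.46. The 984 and 12 were without eGFP replicate 1, and 0 members were left without eGFP replicate 2 or without either GIRK1 library. At an unadjusted p below 0.05, 20 of 49 members were lower and 1 higher without eGFP replicate 2 (884 and 691 of 11291 genes), 7 of 50 and 0 without GIRK1 replicate 1 (537 and 492 of 11649), and 7 of 51 and 0 without GIRK1 replicate 2 (493 and 464 of 11664). A group left with 1 library is assumed to vary like the others. The causes of these shifts were not tested. The replicate numbers are not known to pair libraries: with 2 pairs, the replicate differences correlated at 0.20 over 9091 genes. Signs turned without eGFP replicate 1 in some genes. Over the fits that left out 1 library, the log2 fold change against eGFP ran from -1.48 to 0.25 for HIST1H2BC and from -1.51 to 0.073 for HIST2H2BE, and both passed without eGFP replicate 2 alone. Against the 3 controls it ran from -1.23 to 0.23 for HIST1H3C, -0.92 to 0.25 for HIST2H2BE and -0.26 to 0.12 for NPAT, none of which passed. With all 6 libraries it was -0.10 for HIST2H2BC and 0.059 for NPAT. The GIRK1 share without HIST1H4C was 0.257%, and a 1.5-fold limit gave 2 members higher by the fold and variation rule. Other scalings (DESeq2 size factors, total reads) and end-to-end reads kept the counts within 1.5 times. The libraries were read to different depths, and in the shallowest a level under 1.20 RPM could not be told from 0.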
